A study of Mus musculus with 9 samples.

Results

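The replication-dependent histone genes are the clustered genes that supply the bulk of histone protein while DNA is copied. They were taken as every listed gene whose symbol begins with Hist1h, Hist2h, Hist3h or Hist4h, which gave 67 of the 23360 genes listed. By the class in the symbol, 6 were H1, 18 H2a, 18 H2b, 12 H3 and 13 H4 genes. The Hist1 prefix held 53 of them, Hist2 10, Hist3 3 and Hist4 1, on mouse chromosomes 13, 3, 11 and 6 in GENCODE M21 on mm10. One annotated processed pseudogene, Hist3h2bb-ps, met the rule and was kept.

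Ribosome-depleted total RNA was sequenced from 3 libraries of each of 3 groups. A1G tumours were primary medulloblastomas of mixed-strain mice carrying Math1-cre, which places Cre under control of the granule cell progenitor gene Math1 (Atoh1), the A1G allele and a heterozygous Ptch1 mutation (Math1-cre;A1G;Ptch1+/-); the labels do not spell out A1G, and the series describes these tumours as driven by ATOH1 together with Sonic Hedgehog signalling. Ptch1 tumours were primary medulloblastomas of mixed-strain mice with the heterozygous Ptch1 mutation alone, so both kinds of tumour carry it. The third group was cerebellum from adult wild-type C57BL/6 mice, so tissue, genotype and strain change together in each comparison with cerebellum and cannot be told apart.

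Replication-dependent histone mRNAs differ from nearly all other mRNAs in ending in a conserved stem-loop in place of a poly(A) tail. The stem-loop-binding protein SLBP holds this end during processing and translation, and the mRNAs are made in S phase and degraded when replication stops. H2A, H2B, H3 and H4 form the nucleosome core, and H1 binds the linker DNA where it enters and leaves. Granule cell progenitors divide under Sonic Hedgehog and leave the cell cycle as they mature, and Ptch1, the receptor that restrains the pathway, is a tumour suppressor in them.

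The 3′ stem-loop is the feature by which these mRNAs are defined, so it is shown for 1 gene of each class and for both kinds of H4 stem. The histone stem-loop motif was found in an annotated transcript of 46 of the 67 genes, against 28 of 55274 other annotated genes (0.0507%). In the sequences below, read from GENCODE M21 transcripts of mm10 in the sense direction, capitals mark the stem and loop and lower case the 5 bases on each side.
Hist1h1e (H1): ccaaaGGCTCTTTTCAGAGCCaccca
Hist1h2ag (H2a): acaaaGGCTCTTTTCAGAGCCaccta
Hist1h2bb (H2b): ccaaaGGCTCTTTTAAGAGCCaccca
Hist1h3c (H3): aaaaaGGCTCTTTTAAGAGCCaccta
Hist1h4d (H4): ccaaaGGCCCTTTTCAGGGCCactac
Hist1h4b (H4): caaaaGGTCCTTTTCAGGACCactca

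The motif was found in 4 of 6 H1, 11 of 18 H2a, 10 of 18 H2b, 9 of 12 H3 and 12 of 13 H4 genes. In the H1, H2a, H2b and H3 genes that held it the stem began with GGCTCT, without exception. The H4 genes did not use that stem: 10 began with GGCCCT and 2, Hist1h4b and Hist1h4j, with GGTCCT. Where no motif was found, these letters were not in the annotated transcript, which can end short of the true 3′ end. Annotated transcripts can also run past the motif. Of the genes printed above, 1153 annotated bases followed it in Hist1h1e and 770 in Hist1h4d, against 23 to 74 in the others.

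The promoters also set H4 apart from the other classes. RefSeq promoter sequences (GRCm38.p6, 250 bases before to 50 after the start) could be matched to 53 of the 67 genes. CCAAT, searched on both strands, was present in 42 of 42 H1, H2a, H2b and H3 promoters and in 3 of 11 H4 promoters (Hist1h4a, Hist1h4c and Hist1h4d), against 37.4% of all 32851 promoters in the table. The octamer ATTTGCAT was present in 6 of 14 H2a and 5 of 13 H2b promoters and in none of the 5 H1, 10 H3 and 11 H4 promoters, against 1.74% of all. TATAAA was present in 3 of 5 H1, 9 of 14 H2a, 8 of 13 H2b, 4 of 10 H3 and 8 of 11 H4 promoters, against 13.6% of all. A match is a string of letters and not a shown binding site, and H2a and H2b genes that start back to back share promoter sequence.

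Promoters are printed for 1 H2b gene with all 3 strings, an H3 gene with CCAAT alone, an H4 gene without CCAAT, and Hist2h2ac, whose neighbour across the same promoter behaved differently from it. Capitals mark CCAAT, ATTTGCAT and TATAAA or their reverse complements ATTGG, ATGCAAAT and TTTATA.
Hist1h2bb, chr13:23746484-23746783, plus strand: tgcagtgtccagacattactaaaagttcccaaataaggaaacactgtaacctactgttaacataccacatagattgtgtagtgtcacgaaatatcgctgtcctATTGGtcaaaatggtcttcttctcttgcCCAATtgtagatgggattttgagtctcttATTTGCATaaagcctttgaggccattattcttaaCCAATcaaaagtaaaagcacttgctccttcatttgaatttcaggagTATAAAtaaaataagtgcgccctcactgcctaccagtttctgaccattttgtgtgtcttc
Hist1h3c, chr13:23745472-23745771, minus strand: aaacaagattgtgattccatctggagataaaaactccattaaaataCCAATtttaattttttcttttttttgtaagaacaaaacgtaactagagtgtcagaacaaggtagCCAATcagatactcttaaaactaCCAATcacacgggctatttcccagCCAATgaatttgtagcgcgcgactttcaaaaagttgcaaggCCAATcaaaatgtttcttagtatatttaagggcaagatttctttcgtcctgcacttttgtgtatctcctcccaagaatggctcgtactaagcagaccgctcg
Hist1h4j, chr13:21734784-21735083, plus strand: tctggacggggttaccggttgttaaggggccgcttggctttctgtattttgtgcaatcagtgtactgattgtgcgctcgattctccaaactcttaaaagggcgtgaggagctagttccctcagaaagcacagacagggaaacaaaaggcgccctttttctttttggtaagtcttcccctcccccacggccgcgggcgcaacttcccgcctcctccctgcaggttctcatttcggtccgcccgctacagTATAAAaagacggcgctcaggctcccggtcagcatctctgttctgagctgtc
Hist2h2ac, chr3:96220831-96221130, minus strand: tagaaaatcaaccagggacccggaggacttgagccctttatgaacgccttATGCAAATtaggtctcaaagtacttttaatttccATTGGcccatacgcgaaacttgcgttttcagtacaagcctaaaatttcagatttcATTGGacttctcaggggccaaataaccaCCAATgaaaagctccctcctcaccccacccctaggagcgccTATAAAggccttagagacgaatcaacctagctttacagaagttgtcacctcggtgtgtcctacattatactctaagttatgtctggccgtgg

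The libraries held 2350941 to 9290237 fragments assigned to genes. Marker sums fitted the labelled tissues: in CPM, fragments scaled to a common library size, 4 of 4 Purkinje cell markers summed to 313 to 620 in A1G tumours, 160 to 243 in Ptch1 tumours and 7380 to 9513 in cerebellum. All 6 granule neuron progenitor markers summed to 2131 to 5297 CPM in A1G tumours, 4855 to 5373 in Ptch1 tumours and 35.6 to 78.5 in cerebellum. The 4 dividing-cell markers (Mki67, Top2a, Ccnb1, Cdk1) summed to 4062, 951 and 3096 CPM in A1G replicates 1 to 3, 4109, 5060 and 4576 in Ptch1 tumours and 6.81, 9.70 and 6.17 in cerebellum, where Ccnb1 and Cdk1 each had no fragment in 2 libraries. A1G replicate 2 had the lowest sum of the tumour libraries. That sum is mostly Mki67, at 3462, 618 and 2590 CPM in A1G replicates 1 to 3, and Top2a and Ccnb1 were also lowest there, whereas Cdk1 was highest of the A1G libraries there, at 33.4, 39.8 and 21.7 CPM. Mki67 is also 1 of the 6 progenitor markers and sets the low end of their sum, while the progenitor marker Barhl1 was highest in replicate 2, at 284, 531 and 250 CPM. The part of these markers in the histone results was not tested. Sums for other cell types were lower in both kinds of tumour than in cerebellum without overlap for mature granule neurons, oligodendrocytes, astrocytes and erythrocytes, and overlapped between A1G tumours and cerebellum for microglia and endothelium. Mature granule neuron markers (4 of 4 listed) summed to 283 to 851 CPM in A1G tumours, 177 to 465 in Ptch1 tumours and 4048 to 5257 in cerebellum, and oligodendrocyte markers (4 of 4) to 277 to 364, 57.8 to 348 and 6367 to 6930 CPM in that order. Astrocyte markers (4 of 4) summed to 562 to 708, 260 to 1039 and 2306 to 3459 CPM, microglia markers (3 of 3) to 81.9 to 105, 48.1 to 71.0 and 83.4 to 112, endothelial markers (2 of 2) to 15.996 to 52.5, 11.4 to 38.2 and 47.6 to 55.8, and erythrocyte markers (2 of 3) to 9.43 to 17.6, 3.88 to 14.1 and 26.5 to 209. Within the astrocyte sum, Gfap overlapped cerebellum in both kinds of tumour, while Aqp4, Slc1a3 and Gdf10 were lower in both without overlap. Gfap had 188, 209 and 135 CPM in A1G tumours, against 148, 130 and 161.5 in cerebellum. The erythrocyte genes Hba-a1 and Alas2 each overlapped cerebellum in A1G tumours, and Alas2 also did in Ptch1 tumours. In bulk RNA, fewer cells of a type and less RNA per cell cannot be told apart.

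Histone genes took 2.19, 1.52 and 2.12% of assigned fragments in A1G tumours, 2.65, 3.13 and 2.49% in Ptch1 tumours, and 0.209, 0.164 and 0.154% in cerebellum. Scaled over all 9 libraries, the 67 genes summed to 20740, 14421 and 20480 CPM in A1G tumours, 26604, 32601 and 25670 in Ptch1 tumours, and 2119, 1639 and 1622 in cerebellum. The 3 groups did not overlap, with A1G tumours below Ptch1 tumours and cerebellum far below both. The ratio of group means was 10.3 for A1G tumours over cerebellum, 15.8 for Ptch1 tumours over cerebellum and 0.656 for A1G over Ptch1 tumours. These are descriptions of a sum over chosen genes and carry no test.

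All 67 genes passed the filter for testing, which asked for 3 or more libraries with an FPKM of 1 or higher. Of them 6 reached that FPKM in fewer than 3 cerebellum libraries and so could pass through the tumours alone (Hist1h1t, Hist1h2aa, Hist1h2ao, Hist1h2bj, Hist1h3g and Hist2h2aa2). Differences were tested across 14337 genes with the quasi-likelihood method of edgeR, and a gene was called at a Benjamini-Hochberg adjusted p under 0.05. The labels do not say that replicates were separate animals, so p-values measure the spread between these libraries.

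Against cerebellum, 61 of 67 histone genes were called higher in A1G tumours and 65 of 67 in Ptch1 tumours, and none was called lower. Among the 61 genes that reached the FPKM in all cerebellum libraries, the calls were 57 in A1G and 60 in Ptch1 tumours. Of all tested genes, 16.3% were called higher and 16.1% lower in A1G tumours, and 20.2% higher and 19.7% lower in Ptch1 tumours. The median log2 difference of the histone genes was 4.69 for A1G tumours and 5.10 for Ptch1 tumours, beside medians of 0.03 and 0 over all tested genes. All A1G libraries lay above all cerebellum libraries for 63 histone genes (22.5% of all tested genes) and all Ptch1 libraries did so for 65 (27.2% of all tested genes). Both comparisons use the same 3 cerebellum libraries, so they are not independent of each other.

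The 6 genes not called in A1G tumours against cerebellum were Hist1h1t, Hist2h2aa2, Hist2h2be, Hist3h2ba, Hist1h4n and Hist2h4. In Ptch1 tumours Hist2h2aa2 and Hist2h2be were not called. These were singled out for failing the test, after their values were seen. Hist2h2aa2 and Hist2h2aa1 were taken as near-identical and also summed, an analysis added after the values were seen. That sum was called higher than cerebellum, by 2.07 ± 0.40 on the log2 scale in A1G tumours (adjusted p = 0.00213). In Ptch1 tumours the sum was higher by 2.75 ± 0.41 (adjusted p = 0.000263). The sum does not show the level of either gene alone.

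The classes differed in the size of the difference. Median log2 differences against cerebellum were 3.94 in A1G and 4.44 in Ptch1 tumours for H1, 5.23 and 6.17 for H2a, and 5.17 and 5.54 for H2b. For H3 they were 4.91 in A1G and 5.19 in Ptch1 tumours, and for H4 2.54 in A1G and 2.89 in Ptch1 tumours, the smallest of the 5 classes. The highest H4 gene, at 3.52 in A1G and 3.74 in Ptch1 tumours, lay below the lowest H3 gene, at 4.18 in A1G and 4.17 in Ptch1 tumours.

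**Figure D1:**
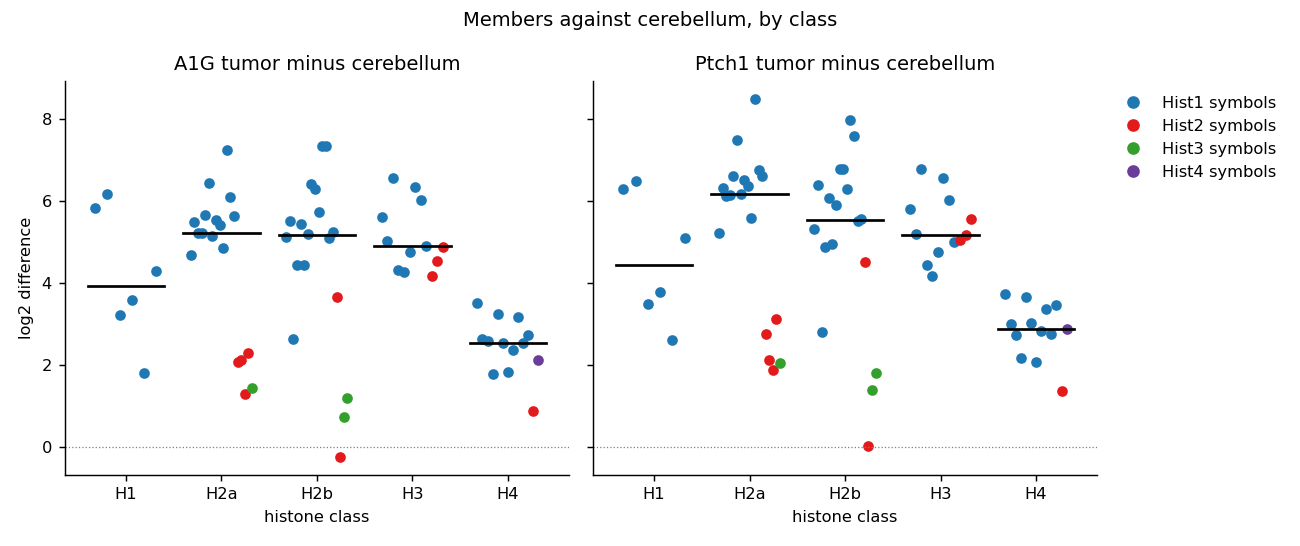
Log2 difference of each of the 67 histone genes against cerebellum (vertical axis) by histone class (horizontal axis), for A1G tumours on the left and Ptch1 tumours on the right. Points are genes coloured by symbol prefix and black bars are class medians; the H4 medians (2.54 and 2.89) are the lowest, and the Hist2 and Hist3 points of H2a and H2b lie below most Hist1 points of those classes.

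H1 genes encode the linker histones. Hist1h1a and Hist1h1b, a pair of replication-dependent subtypes, had the largest differences, and neither shared a 100-base window of its annotated transcripts with another gene. Hist1h1a (chr13:23763666-23764406) had 629, 234 and 663 CPM in A1G tumours, 671, 966 and 466 in Ptch1 tumours and 11.3, 7.58 and 7.97 in cerebellum. Hist1h1b (chr13:21779883-21780625) had 516, 255 and 393 CPM in A1G tumours, 470, 559 and 420 in Ptch1 tumours and 8.38, 5.16 and 2.59 in cerebellum. For both genes each tumour library stood above each cerebellum library, the A1G and Ptch1 libraries overlapped, and A1G replicate 2 was the lowest tumour library. The log2 difference against cerebellum was 5.83 ± 0.49 (SE) in A1G and 6.29 ± 0.50 in Ptch1 tumours for Hist1h1a, with adjusted p-values of 5.6e-06 and 2.67e-06. For Hist1h1b it was 6.19 ± 0.46 in A1G and 6.50 ± 0.47 in Ptch1 tumours, with adjusted p-values of 2.54e-06 and 1.33e-06.

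Hist1h1e was the H1 gene with the smallest difference from cerebellum. It had 742, 797 and 636 CPM in A1G tumours, 1357, 1303 and 1085 in Ptch1 tumours and 215, 187 and 213 in cerebellum. The 3 groups did not overlap, and the log2 difference was 1.82 ± 0.25 in A1G tumours (adjusted p = 0.00018) and 2.60 ± 0.25 in Ptch1 tumours (adjusted p = 1.12e-05). An annotated transcript of Hist1h2be runs over Hist1h1e, and 24.7% of the windows of Hist1h1e were shared with other genes, so its fragments are uncertain. Hist1h1c and Hist1h1d lay between, at log2 differences of 3.22 and 3.59 in A1G tumours and 3.49 and 3.78 in Ptch1 tumours.

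By level per effective kilobase, the order of the H1 genes differed between tissues. Without division by length, Hist1h1e was the highest H1 gene in each group. Its mean CPM was 725 in A1G tumours, 1248 in Ptch1 tumours and 205 in cerebellum. The effective length was 595 bases for Hist1h1a and 1886 for Hist1h1e, so the tumour order depends on these lengths. Per effective kilobase, in CPM, Hist1h1a was highest in the tumours at 856 in A1G and 1179 in Ptch1 tumours, against 15.03 in cerebellum. Hist1h1b followed at 757 in A1G and 942 in Ptch1 tumours, against 10.5 in cerebellum. Hist1h1e was the highest in cerebellum at 109, and had 384 in A1G and 662 in Ptch1 tumours. Hist1h1t, the linker histone of the testis, had 1, 4 and 0 fragments in A1G tumours, 3, 11 and 3 in Ptch1 tumours and none in cerebellum. Over the group, its level in Ptch1 tumours was at least 4.32-fold higher than the 3 fragments that a count of 0 in cerebellum allows. Hist1h1t could pass the filter through the tumours alone, which bears on its call. Its call in Ptch1 tumours (adjusted p = 0.0288) was lost without Ptch1 replicate 2 or without any 1 of the 3 cerebellum libraries, where the adjusted p was 0.0591 to 0.0755, and under DESeq2 (0.0586) and with the replicate block (0.0638). With Hist1h1t set to that bound, and to 2.41-fold in A1G tumours, the H1 medians were 3.40 in A1G and 3.63 in Ptch1 tumours.

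**Figure D2:**
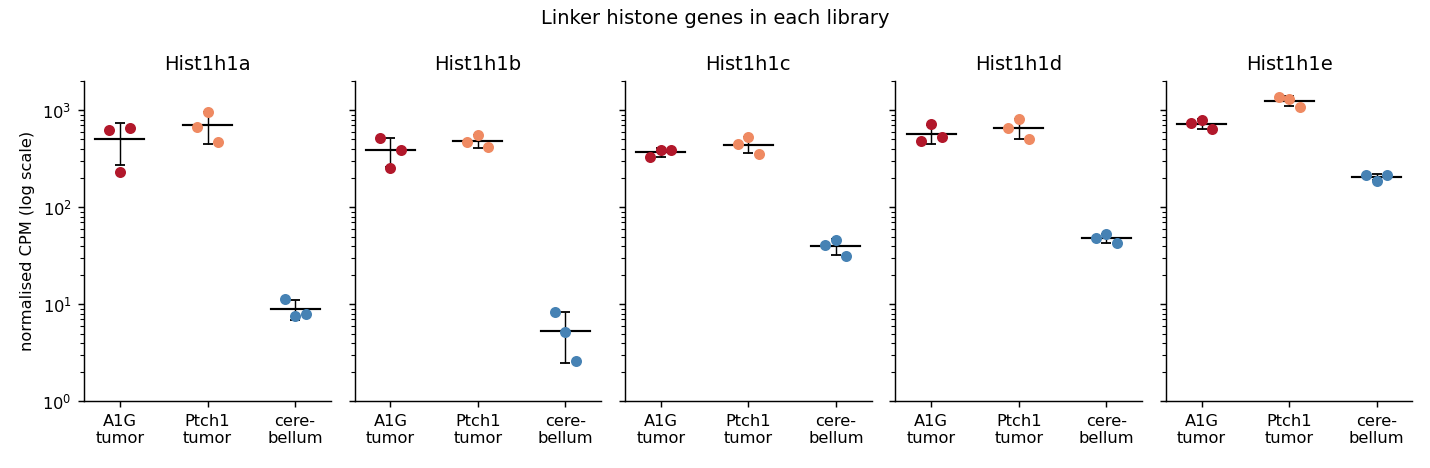
Normalised CPM on a log scale (vertical axis) of 5 linker histone genes in each library of A1G tumour, Ptch1 tumour and cerebellum. Points are libraries, bars are group means with SD (n = 3); cerebellum lies at 2.59 to 11.3 CPM for Hist1h1a and Hist1h1b and at 187 to 215 CPM for Hist1h1e.

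H2a and H2b genes encode the 2 proteins that form dimers on the flanks of the nucleosome. Against cerebellum, 17 of 18 H2a genes were called higher in both A1G and Ptch1 tumours, and 16 of 18 H2b genes in A1G and 17 in Ptch1 tumours. Among those called, Hist1h2aa, Hist1h2ao and Hist1h2bj could pass the filter through the tumours alone. Hist1h2an, the H2a gene with the largest difference, had 256, 204 and 240 CPM in A1G tumours, 388, 663 and 612 in Ptch1 tumours and 0.786, 2.43 and 1.39 in cerebellum. Its log2 difference was 7.25 ± 0.43 in A1G and 8.50 ± 0.44 in Ptch1 tumours (adjusted p 7.07e-07 and 2.05e-07), but 83.3% of its windows were shared, most of them with Hist1h2ah. Hist1h2bm, with 6.59% of windows shared, had 155, 81.5 and 139 CPM in A1G tumours, 196, 244 and 141 in Ptch1 tumours and 1.05, 0.303 and 0.797 in cerebellum. Its log2 difference was 7.35 ± 0.47 in A1G and 7.98 ± 0.48 in Ptch1 tumours (adjusted p 9.42e-07 and 4.47e-07).

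Hist2h2ac, Hist1h2ak and Hist1h2ap were the most abundant H2a genes per effective kilobase, with 2186, 2339 and 2000.04 CPM in A1G tumours, against 3913, 3899.8 and 3925 in Ptch1 tumours. In cerebellum they had 445, 80.8 and 40.1 CPM, so the 3 were close in the tumours and far apart in cerebellum. Hist1h2ap shared 92.2% of its windows with Hist1h2ao, so its level is uncertain. Hist1h2bh, the next H2b gene by this measure over all libraries, had 1454 CPM per effective kilobase in A1G tumours, 2362 in Ptch1 tumours and 39.1 in cerebellum. Other genes of these classes with large differences were Hist1h2af, at 6.44 ± 0.43 in A1G and 7.49 ± 0.45 in Ptch1 tumours, and Hist1h2bn, at 7.34 ± 0.40 and 7.60 ± 0.40. Hist1h2af shared 79.3% and Hist1h2bn 52.1% of windows with other genes, so their fragments are uncertain. Per effective kilobase, Hist2h2bb was the highest H2b gene in each group, with 5468 CPM in A1G tumours, 9879 in Ptch1 tumours and 433 in cerebellum. All its windows were shared with another annotated gene, so that level cannot be assigned to it alone. Hist1h2bb, second to it in both kinds of tumour, had 1066, 643 and 873 CPM in A1G tumours, 1798, 1721 and 1163 in Ptch1 tumours and 24.4, 19.7 and 11.9 in cerebellum. Its 3 groups did not overlap, and the log2 difference from cerebellum was 5.53 ± 0.39 in A1G and 6.39 ± 0.41 in Ptch1 tumours.

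Genes outside the Hist1 cluster differed less. The 13 Hist1 H2a genes had a median log2 difference from cerebellum of 5.49 in A1G and 6.38 in Ptch1 tumours, against 2.07 and 2.12 for the 5 H2a genes with Hist2 and Hist3 symbols. The 14 Hist1 H2b genes had 5.35 in A1G and 6.00 in Ptch1 tumours, against 0.97 and 1.60 for the other 4. For H3 the gap was small, 5.04 for 9 Hist1 genes and 4.55 for 3 Hist2 genes in A1G tumours, and 5.20 and 5.18 in Ptch1 tumours.

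Hist2h2be, known in the mouse as an olfactory neuron H2B variant, was the exception among the H2b genes. It had 14.3, 7.15 and 11.1 CPM in A1G tumours, 7.76, 14.6 and 16.8 in Ptch1 tumours and 19.1, 10.3 and 8.96 in cerebellum. The 3 groups overlapped throughout, and the log2 difference was -0.24 ± 0.47 in A1G tumours (adjusted p = 0.727) and 0.02 ± 0.46 in Ptch1 tumours (adjusted p = 0.972). None of its windows was shared. Its neighbour Hist2h2ac, whose annotated start lies 238 bases away on the other strand, had 701, 241 and 406 CPM in A1G tumours, 702, 725 and 985 in Ptch1 tumours and 127, 69.7 and 77.5 in cerebellum. Each tumour library of Hist2h2ac stood above each cerebellum library, at a log2 difference of 2.30 ± 0.40 in A1G (adjusted p = 0.000967) and 3.14 ± 0.41 in Ptch1 tumours (adjusted p = 9.82e-05).

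Hist3h2ba, at 97.7, 92.7 and 133 CPM in A1G tumours, 183, 123 and 207 in Ptch1 tumours and 66.3, 49.4 and 78.3 in cerebellum, had the smallest called H2b difference in Ptch1 tumours (1.40 ± 0.29, adjusted p = 0.00236). In A1G tumours its difference of 0.74 ± 0.29 was not called (adjusted p = 0.07). A pair of genes known from the male germ line differed from each other in level. Hist1h2ba had 234, 186 and 213 CPM in A1G tumours, 304, 272 and 154 in Ptch1 tumours and 8.64, 3.94 and 5.38 in cerebellum, with 27.4% of its windows shared. Hist1h2aa, its neighbour on the other strand, had 2.57, 3.42 and 2.87 CPM in A1G tumours, 1.83, 4.03 and 7.26 in Ptch1 tumours and 1 fragment in all 3 cerebellum libraries. Hist1h2aa passed the filter through the tumours, so its test values are not given, though the count of calls above includes it. Hist1h2ba was called higher in both kinds of tumour than in cerebellum, with adjusted p-values of 2.73e-06 in A1G and 1.53e-06 in Ptch1 tumours.

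H3 and H4 form the tetramer at the centre of the nucleosome, yet their genes stood apart in these data. All 12 H3 genes were called higher than cerebellum in both kinds of tumour. Of these, Hist1h3g could pass the filter through the tumours alone. Hist1h3c had 243, 145 and 241 CPM in A1G tumours, 177, 284 and 275 in Ptch1 tumours and 1.83, 1.82 and 2.79 in cerebellum. The A1G and Ptch1 libraries overlapped, and the log2 difference from cerebellum was 6.56 ± 0.39 in A1G and 6.79 ± 0.40 in Ptch1 tumours (adjusted p 7.51e-07 and 3.97e-07). Hist1h3g was next, at 6.34 ± 0.55 in A1G and 6.56 ± 0.56 in Ptch1 tumours, and rested on 12, 8 and 1 fragments in cerebellum, where it reached the FPKM of the filter in 2 libraries. Per effective kilobase over all 9 libraries Hist1h3e was the highest H3 gene, with 832 CPM in A1G tumours, 776 in Ptch1 tumours and 43.1 in cerebellum. Hist1h3c and Hist1h3i followed, with 691 and 695 CPM in A1G tumours, 808 and 741 in Ptch1 tumours and 7.07 and 23.1 in cerebellum.

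Of 13 H4 genes, 11 were called higher in A1G and 13 in Ptch1 tumours than in cerebellum. Hist1h4d, which shared no window with another gene, had 490, 315 and 438 CPM in A1G tumours, 552, 616 and 465 in Ptch1 tumours and 113, 110 and 139 in cerebellum. Every tumour library stood above every cerebellum library, at a log2 difference of 1.78 ± 0.27 in A1G (adjusted p = 0.000359) and 2.17 ± 0.27 in Ptch1 tumours (adjusted p = 6.63e-05). Per effective kilobase it had 3363 CPM in A1G tumours, 4416 in Ptch1 tumours and 979 in cerebellum, the highest histone level in cerebellum by that measure. Without division by length, Hist1h4d lay below Hist1h1e in cerebellum, which had 215, 187 and 213 CPM there. The rank of Hist1h4d across classes therefore depends on the effective lengths. Hist1h4b and Hist1h4j, the genes with the GGTCCT stem, came next among the H4 genes per effective kilobase over all 9 libraries. Hist1h4b had 369, 381 and 326 CPM in A1G tumours, 439, 535 and 412 in Ptch1 tumours and 59.7, 47.9 and 66.3 in cerebellum, and Hist1h4j had 299, 369 and 276 CPM, 421, 474 and 418 CPM and 56.8, 57.9 and 68.7 CPM in that order. For both the 3 groups did not overlap, with A1G libraries between the other two groups. Hist1h4a and Hist1h4f had the largest H4 differences, at 3.52 ± 0.35 and 3.26 ± 0.39 in A1G tumours and 3.74 ± 0.35 and 3.67 ± 0.40 in Ptch1 tumours.

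Hist1h4m and Hist1h4n are near-identical, with 88.1 and 80.7% of their windows shared, so their fragments are uncertain one by one. Hist1h4n had 156, 0 and 125 CPM in A1G tumours, 102, 187 and 178 in Ptch1 tumours and 24.6, 17.0 and 1.19 in cerebellum. Hist1h4m had 150, 284 and 173 CPM in A1G tumours, 258, 280 and 165 in Ptch1 tumours and 25.9, 23.0 and 54.8 in cerebellum. In A1G replicate 2 and cerebellum replicate 3, where Hist1h4n was lowest of its group, Hist1h4m was highest. In Ptch1 replicate 1, where Hist1h4n was also lowest of its group, Hist1h4m was not highest. The part of read assignment in this was not tested. Summed, the pair had 306, 284 and 298 CPM in A1G tumours, 360, 467 and 343 in Ptch1 tumours and 50.5, 40.0 and 56.0 in cerebellum, without overlap between the groups. Alone, Hist1h4n was called in A1G tumours only when replicate 2, the library at 0, was left out (adjusted p = 0.00473) or no filter was used (0.0155), and its call in Ptch1 tumours (0.03998) was lost without any 1 Ptch1 or cerebellum library or A1G replicate 3, and under DESeq2 (0.0938) and limma-trend (0.0805). The summed log2 difference from cerebellum was 2.60 ± 0.26 in A1G (adjusted p = 1.78e-05) and 2.995 ± 0.26 in Ptch1 tumours (adjusted p = 4.76e-06), an analysis added after the values were seen.

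Hist2h4, which also shared no window, had 97.3, 158 and 118 CPM in A1G tumours, 163, 199 and 166 in Ptch1 tumours and 38.2, 72.8 and 92.6 in cerebellum. The groups did not overlap, but the difference in A1G tumours of 0.87 ± 0.33 was not called (adjusted p = 0.0585), while that in Ptch1 tumours of 1.38 ± 0.33 was (adjusted p = 0.00545). Without cerebellum replicate 3 the A1G difference was called (1.19, adjusted p = 0.0255), as it was under 5 other settings. The A1G and Ptch1 libraries themselves differed by -0.50 ± 0.32, which was not called (adjusted p = 0.606).

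By sums, H3 had the largest ratio to cerebellum and H4 the smallest. H3 genes summed to 2611, 1654 and 2232 CPM in A1G tumours, 2255, 2813 and 2705 in Ptch1 tumours and 73.1, 71.0 and 60.3 in cerebellum, a ratio of means to cerebellum of 31.8 in A1G and 38.0 in Ptch1 tumours. H4 genes summed to 3196, 2612 and 2914 CPM in A1G tumours, 3522, 4292 and 3763 in Ptch1 tumours and 565, 532 and 626 in cerebellum, a ratio of 5.06 in A1G and 6.72 in Ptch1 tumours. The ratios for H1, H2a and H2b were 8.36, 10.2 and 16.4 in A1G tumours and 11.5, 18.8 and 25.4 in Ptch1 tumours.

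**Figure D3:**
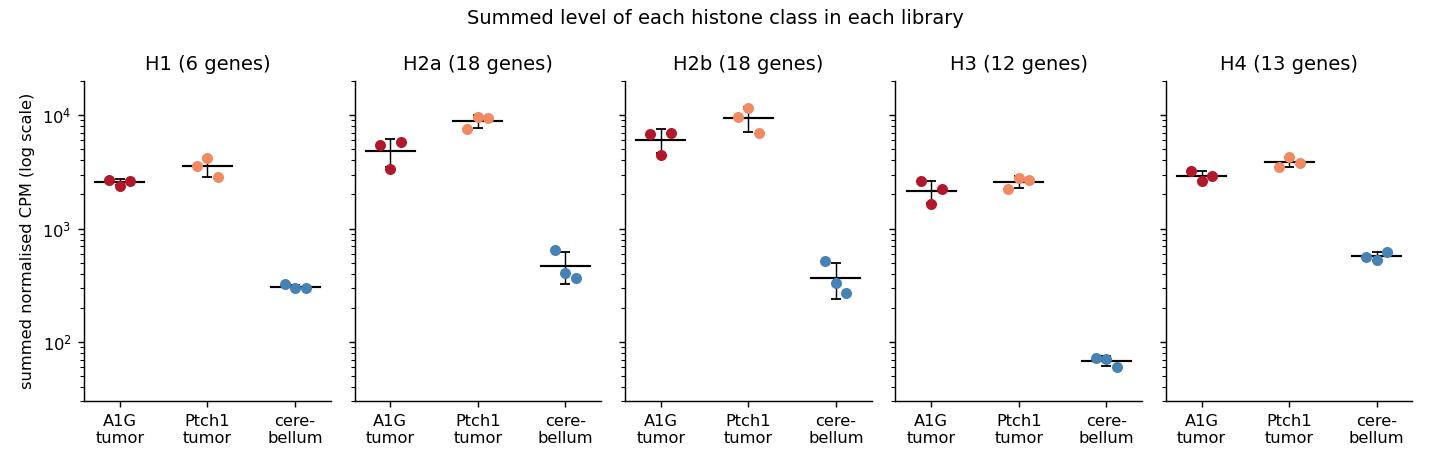
Summed normalised CPM of each histone class on a log scale (vertical axis) in each library of A1G tumour, Ptch1 tumour and cerebellum. Points are libraries, bars are group means with SD (n = 3); every tumour library lies above every cerebellum library in each class, and H3 has the widest gap (2166 and 2591 against 68.1 CPM on average).

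The make-up of the histone fragments therefore differed. H4 took 15.9 ± 1.99% (SD, n = 3) of them in A1G tumours and 13.7 ± 0.844% in Ptch1 tumours, against 32.6 ± 5.96% in cerebellum. H3 took 11.7 ± 0.861% in A1G and 9.21 ± 1.15% in Ptch1 tumours, against 3.83 ± 0.452% in cerebellum. H2b took 32.5 ± 1.62% in A1G and 33.05 ± 5.10% in Ptch1 tumours, against 20.3 ± 3.90% in cerebellum. For these 3 classes tumour and cerebellum libraries did not overlap. H2a took 25.8 ± 2.56% in A1G and 31.6 ± 4.36% in Ptch1 tumours, against 25.99 ± 3.88% in cerebellum, and H1 14.1 ± 2.12%, 12.5 ± 1.27% and 17.3 ± 1.76%. The ratio of summed H3 to summed H4 was 0.817, 0.633 and 0.766 in A1G tumours, 0.640, 0.655 and 0.719 in Ptch1 tumours and 0.129, 0.133 and 0.0964 in cerebellum. Shares of fragments grow with transcript length, and by deposited FPKM, which divides by length, H4 took 29.8% in A1G and 25.1% in Ptch1 tumours, against 58.8% in cerebellum.

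**Figure D4:**
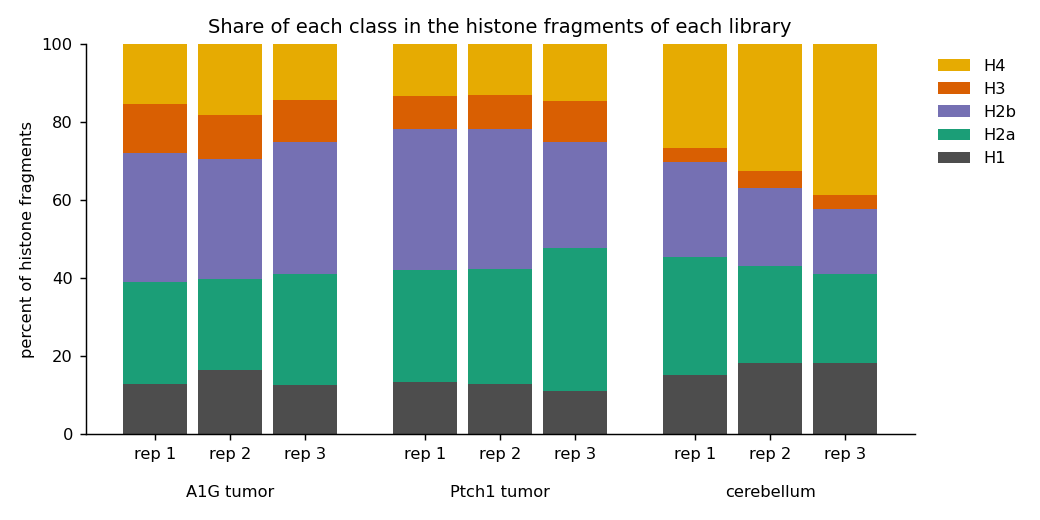
Share of each histone class in all histone fragments, in percent (vertical axis), for the 9 libraries grouped as A1G tumour, Ptch1 tumour and cerebellum. Each bar is a library split into H1, H2a, H2b, H3 and H4; the H4 section is 26.7 to 38.6% in cerebellum and 13.2 to 18.1% in the tumours.

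Between A1G and Ptch1 tumours no histone gene was called, and 2 of 14337 tested genes were (0.0139%). At an unadjusted p under 0.05 there were 18 histone genes, or 26.9% (10.6% of all tested genes). DESeq2 called 5 histone genes lower in A1G tumours (Hist1h1e, Hist1h2ad, Hist1h2ag, Hist1h2ah and Hist1h2an), beside 56 lower among all 14337 tested genes. The histone genes nevertheless lay mostly on one side. The log2 difference was negative for 64 of 67, with a median of -0.50 beside 0.02 over all tested genes. It was positive for 3 histone genes and for 51.5% of all tested genes. All A1G libraries lay below all Ptch1 libraries for 26 histone genes, or 38.8% (8.84% of all tested genes), and above them for none (6.68% of all tested genes).

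The class medians were -0.39 for H1, -0.87 for H2a, -0.49 for H2b, -0.17 for H3 and -0.39 for H4. The libraries did not overlap for 15 of 18 H2a genes, 3 of 18 H2b, 3 of 12 H3, 4 of 13 H4 and 1 of 6 H1 genes, all with A1G below Ptch1. The 5 histone genes with the smallest p were all H2a genes. Hist1h2ag had 184, 141 and 208 CPM in A1G tumours, against 300, 412 and 381 in Ptch1 tumours, with 4.98, 5.46 and 4.58 CPM in cerebellum. Hist1h2an, given above, and Hist1h2ag had log2 differences of -1.25 ± 0.31 and -1.04 ± 0.25, both with an adjusted p of 0.269. Hist1h2ad and Hist1h2ah, at 313, 247 and 377 CPM and 196, 160 and 213 CPM in A1G tumours against 511, 651 and 619 CPM and 306, 409 and 405 CPM in Ptch1 tumours, had -0.93 ± 0.25 and -0.98 ± 0.28 (adjusted p = 0.292 and 0.297). Hist1h2ac, at 206, 164 and 248 CPM in A1G against 325, 459 and 374 CPM in Ptch1 tumours, shared 8.06% of its windows and had -0.91 ± 0.26 (adjusted p = 0.297). The shared windows of Hist1h2ag, Hist1h2ad, Hist1h2ah and Hist1h2an were 76.2, 63.6, 89.5 and 83.3%, mostly with other H2a genes of the set, so these are not separate readings.

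**Figure D5:**
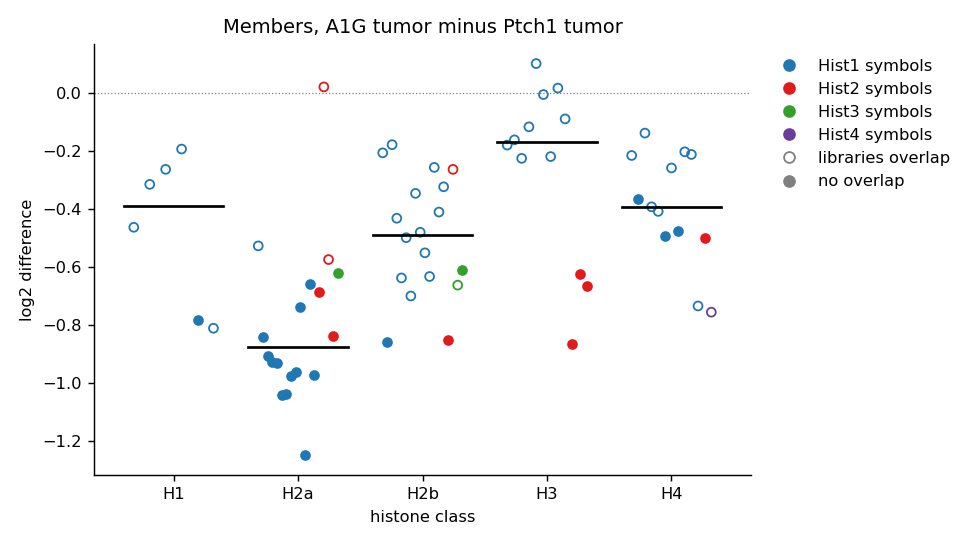
Log2 difference of each of the 67 histone genes, A1G tumour minus Ptch1 tumour (vertical axis), by histone class (horizontal axis). Filled points are genes whose A1G libraries all lie below all Ptch1 libraries, open points are genes whose libraries overlap, colours are symbol prefixes and black bars class medians (-0.87 for H2a, -0.17 for H3).

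H2a and H2b genes are often arranged in divergent pairs, and 12 pairs in this set had annotated starts 172 to 305 bases apart. In 12 of 12 pairs the H2a gene had the lower A1G minus Ptch1 difference, with medians of -0.92 for the H2a and -0.38 for the H2b genes. Hist3h2a and the pseudogene Hist3h2bb-ps were nearly tied, at -0.62 and -0.61, and Hist1h2aa, in another pair, had few fragments. Several of the H2a genes share most of their windows, so the pairs are not separate readings. The count was 11 of 12 without A1G replicate 1, A1G replicate 2 or Ptch1 replicate 2. The contrast rested in part on Ptch1 replicate 3. There the summed H2a level was 1.35 times the summed H2b level, against 0.754 to 0.834 in the other 5 tumour libraries and 1.24 to 1.37 in cerebellum, and 16 of 18 H2b genes had their lowest Ptch1 value. Without Ptch1 replicate 3 the libraries did not overlap for 16 H2a and 15 H2b genes (14.9% of all tested genes lower), and the H2a gene was the lower in 9 of 12 pairs. Over those pairs the medians were then -0.91 for the H2a and -0.47 for the H2b genes. Over all H2a and all H2b genes they were -0.85 and -0.67.

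A1G replicate 2 was the lowest A1G library for 50 of 67 genes, and it also had the lowest Mki67, Top2a and Ccnb1 but not the lowest Cdk1. Without it, all A1G libraries lay below all Ptch1 libraries for 28 genes (15.8% of all tested genes), 15 of them H2a. The medians over all H2a and all H2b genes were then -0.76 and -0.29.

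Among H3 genes the Hist1 and Hist2 members gave different medians. The 9 Hist1 H3 genes had a median difference between A1G and Ptch1 tumours of -0.12, with overlapping libraries for each of them. The 3 Hist2 H3 genes had -0.67, with A1G below Ptch1 throughout. Hist2h3c2 had 356, 189 and 367 CPM in A1G tumours, against 471, 497 and 480 in Ptch1 tumours, at -0.67 ± 0.29 (adjusted p = 0.442). Hist2h3b shared all of its windows with Gm20628, and Hist2h3c1 and Hist2h3c2 shared all and 61.6% of theirs with Gm20634, so their fragments are uncertain.

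Genes that make, process and load histones were read from lists chosen with earlier results of these data known. All 24 S phase genes were called higher than cerebellum in both kinds of tumour, with median log2 differences of 4.03 in A1G and 4.43 in Ptch1 tumours. Of all tested genes, 16.3% were called higher in A1G and 20.2% in Ptch1 tumours. Uhrf1, which maintains DNA methylation at replication, had 236, 259 and 167 CPM in A1G tumours, 248, 407 and 231 in Ptch1 tumours and 0.524, 0 and 0.398 in cerebellum. The replication licensing genes Cdc6 and Mcm6 had log2 differences of 6.63 ± 0.49 and 5.99 ± 0.39 in A1G tumours and 6.84 ± 0.49 and 6.48 ± 0.39 in Ptch1 tumours. The list summed to 3002, 1738 and 2209 CPM in A1G tumours, 3064, 3987 and 2652 in Ptch1 tumours and 223, 199 and 181 in cerebellum. Between the tumours none was called, 22 of 24 differences were negative, and the median was -0.50.

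Of 22 histone chaperone and deposition genes, 12 were called higher in A1G and 18 in Ptch1 tumours than in cerebellum, and none lower. The shares of all tested genes called higher were 16.3% and 20.2%. Chaf1b, a subunit of the replication-coupled chaperone CAF-1, had 83.4, 38.2 and 58.7 CPM in A1G tumours, 70.6, 64.4 and 73.0 in Ptch1 tumours and 0.262, 0.607 and 0.199 in cerebellum. Nasp, a chaperone of soluble histones, had 404, 188 and 377 CPM in A1G tumours, 704, 860 and 612 in Ptch1 tumours and 36.7, 38.5 and 24.5 in cerebellum. Its log2 difference from cerebellum was 3.28 ± 0.35 in A1G and 4.45 ± 0.37 in Ptch1 tumours. Mms22l, Asf1b and Chaf1a, which act in histone deposition behind the fork, differed from cerebellum by 4.95, 4.79 and 3.50 in A1G and 4.48, 4.87 and 4.36 in Ptch1 tumours. For Nasp the A1G libraries lay below the Ptch1 libraries, at a difference of -1.17 ± 0.32 (adjusted p = 0.297).

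The genes listed for histone mRNA processing and decay had smaller median differences than the histone genes. Of 14 tested histone mRNA processing and decay genes, 2 were called higher and 1 lower in A1G tumours than in cerebellum, and 5 higher and 2 lower in Ptch1 tumours, with median log2 differences of 0.22 and 0.44. The share called higher in A1G tumours is near the 16.3% of all tested genes, and 20.2% of all genes were called higher in Ptch1 tumours. The shares of all tested genes called lower were 16.1% in A1G and 19.7% in Ptch1 tumours. Slbp, which binds the stem-loop, had 59.9, 37.6 and 31.6 CPM in A1G tumours, 42.7, 55.7 and 30.6 in Ptch1 tumours and 18.3, 15.2 and 14.3 in cerebellum. Its log2 difference was 1.43 ± 0.34 in A1G (adjusted p = 0.00727) and 1.44 ± 0.34 in Ptch1 tumours (adjusted p = 0.00529). Eri1, an exonuclease that trims histone mRNA ends, rose by 1.41 ± 0.30 in A1G and 1.96 ± 0.30 in Ptch1 tumours. Lsm11, a protein of the U7 particle that cuts the pre-mRNA, had 30.8, 11.5 and 27.1 CPM in A1G tumours, 15.5, 20.2 and 24.8 in Ptch1 tumours and 87.0, 63.7 and 46.4 in cerebellum. It fell by 1.51 ± 0.39 on the log2 scale in A1G tumours (adjusted p = 0.0115) and by 1.71 ± 0.39 in Ptch1 tumours (adjusted p = 0.00446). In Ptch1 tumours Srrt and Ncbp1, which act at the mRNA cap, also rose, by 1.24 ± 0.28 and 1.21 ± 0.25, and Mif4gd, a partner of SLBP in translation, fell by 1.43 ± 0.44. Without cerebellum replicate 1, none of the list was called lower in A1G tumours and 1 in Ptch1 tumours, and the count for Ptch1 tumours was also 1 without cerebellum replicate 3 or without Ptch1 replicate 1 or 2.

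Of 6 regulators of histone gene transcription, 1 was called higher in A1G and 4 in Ptch1 tumours. In A1G tumours that share is about the 16.3% of all tested genes called higher, against 20.2% of all genes in Ptch1 tumours. Cdk2, the S phase kinase, had 58.8, 41.7 and 27.1 CPM in A1G tumours, 38.6, 43.7 and 46.6 in Ptch1 tumours and 1.31, 1.52 and 1.79 in cerebellum. Npat, the coactivator through which cyclin E and CDK2 act on histone genes, had 129, 56.9 and 123 CPM in A1G tumours, 90.7, 84.8 and 88.6 in Ptch1 tumours and 64.7, 61.6 and 67.1 in cerebellum and was not called (adjusted p = 0.107 in A1G and 0.257 in Ptch1 tumours). Casp8ap2, an NPAT-associated factor known as FLASH, had 320, 80.5 and 248 CPM in A1G tumours, 421, 429 and 342 in Ptch1 tumours and 135, 118 and 57.2 in cerebellum. It was called in Ptch1 tumours (1.95 ± 0.46, adjusted p = 0.0049), with A1G replicate 2 inside the cerebellum range and no call in A1G tumours (1.07 ± 0.45, adjusted p = 0.0879). Hinfp, a factor for H4 promoters, and Ccne2 were called in Ptch1 tumours, at 1.12 ± 0.33 and 1.04 ± 0.37. Without A1G replicate 2 the count in A1G tumours was 3, and without cerebellum replicate 2 the count in Ptch1 tumours was 2.

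Histone variants listed as replication-independent were mostly higher as well, by less in the median. Of 11, 9 were called higher in A1G and 11 in Ptch1 tumours than in cerebellum, with median log2 differences of 1.70 and 1.91. Among all tested genes the shares called higher were 16.3% and 20.2%. H2afx, the variant phosphorylated at DNA breaks, had 173, 273 and 155 CPM in A1G tumours, 198, 293 and 239 in Ptch1 tumours and 12.8, 17.3 and 19.1 in cerebellum. Cenpa, the centromeric H3 variant, had 52.2, 29.5 and 31.99 CPM in A1G tumours, 17.4, 41.8 and 25.6 in Ptch1 tumours and 0.262, 0 and 0 in cerebellum. H1fx, a linker variant, had 23.1, 56.3 and 15.6 CPM in A1G tumours, 58.0, 101 and 44.7 in Ptch1 tumours and 2.36, 2.12 and 7.77 in cerebellum. H3f3a, which encodes replication-independent H3, differed by 1.94 ± 0.38 in A1G and 1.97 ± 0.38 in Ptch1 tumours.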

How the data were processed

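Each library has a deposited gene table. Its expected counts are the authors' raw fragments by gene, per the file headers, the signal columns are those fragments after the authors' scaling, and the FPKM values are the authors' scaled fragments per kilobase. The deposited tumour and cerebellum scalings were separate, so fragments were rounded to whole numbers and rescaled here over all 9 libraries. Per the submitters' processing notes the build was mm10 and Bowtie 0.12.2 was used. The sources used here give no annotation, strand or treatment of multiply mapping reads, so reads of near-identical or overlapping genes cannot be told apart. Libraries were sequenced 3 per chip, per the labels, without saying which ones.

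The 14337 genes whose FPKM reached 1 in 3 or more libraries were fitted with edgeR 4.0.16 (TMM, 1 mean per group) under R 4.3.3, with Benjamini-Hochberg adjustment. The fit was tested on simulated data. DESeq2 1.42.0 and limma 3.58.1 were alternatives. The exact two-sided permutation test cannot go below 0.1 with 3 against 3 libraries. Replicates correlated at Spearman 0.887 to 0.968 and their counts differed beyond sampling noise, with a chi-square of 10.9 to 43.5 for each degree of freedom. A count of 0 allows 3 fragments, or 0.323 to 1.28 CPM, for counting error only.

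Named genes were, per class, the 3 most abundant per effective kilobase (the length implied by fragments and FPKM) and up to 2 of the largest called differences, the 5 smallest p between tumours, and up to 4 per list and direction (2 of the most abundant where none was called). Others were chosen after their values were seen. Members and lists were chosen with earlier results of these data known. Shared windows are 100-base stretches of annotated transcripts that occur in another gene. Tools also included Python 3.11.15, NumPy 2.4.6, pandas 2.3.3 and matplotlib 3.10.9.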

Additional observations from a re-analysis of the deposited data

How the results depend on the processing

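For the 26 histone genes named by rule, none of 1479 recomputed values reversed a called difference, and 5 passed the threshold that had not, under DESeq2 between the tumours. Uncalled differences for A1G minus Ptch1 tumours changed sign 3 times: Hist1h3i was 0.02 by total fragments and 0.05 without Ptch1 replicate 3, and Hist1h4a was 0.00026 without Ptch1 replicate 2. Between A1G and Ptch1 tumours DESeq2 called 163 genes and no filter 81, against 2. DESeq2 called 56 of all tested genes and 5 histone genes lower, against 0 and 0, and the cause was not tested. Leaving out 1 library, 59 to 61 histone genes were called higher in A1G and 63 to 65 in Ptch1 tumours than in cerebellum. Scaling by total fragments alone moved the median of all tested genes to 0.12 for A1G minus Ptch1 tumours and to 0.13 for A1G tumours minus cerebellum.

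The H1 median against cerebellum was 3.59, 3.57 and 3.39 in A1G tumours and 3.78, 4.08 and 3.61 in Ptch1 tumours under the filterByExpr filter, DESeq2 and limma-trend, and 3.29 to 4.25 and 4.13 to 4.54 without 1 library; the filterByExpr filter drops the nearly undetected Hist1h1t. The H2b median in Ptch1 tumours ranged from 5.36 to 5.91 without 1 library. The log2 ratio of summed H1 to cerebellum in A1G tumours was 3.16 by total fragments and 3.83 by FPKM, and in Ptch1 tumours 4.25 by FPKM. By FPKM the H2a ratio was 3.84 in A1G and 4.72 in Ptch1 tumours. Shares by FPKM, which divides by length, were 3.82, 3.37 and 2.84% for H1 and 8.41, 6.25 and 2.61% for H3 in A1G tumours, Ptch1 tumours and cerebellum, 29.8, 25.1 and 58.8% for H4 in that order, 20.02% for H2a in cerebellum, and 30.6% in A1G tumours and 15.7% in cerebellum for H2b.

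With the replicate block, 2 genes and 0 histone genes were called between A1G and Ptch1 tumours, and 4456 genes against 4650 for A1G tumours minus cerebellum. Same-numbered libraries correlated at -0.06 to 0.20 in their deviations, not all above 0.1. These values cannot decide whether same-numbered libraries shared a chip or other batch, which the labels do not give. Against Ptch1 libraries, A1G replicates 2 and 3 correlated best with their own number (0.06 and 0.13) and replicate 1 with replicate 2 (0.15, against -0.06); against cerebellum, replicate 1 alone did (0.20). Ptch1 replicates 1 and 3 correlated best with the cerebellum library of their own number (0.02 and 0.12). Ptch1 replicate 2 correlated at 0.060 with its own number and at 0.065 with cerebellum replicate 1. Calls against cerebellum that changed under some settings belonged to Hist1h1t, Hist1h4n, Hist2h2ab, Hist2h4, Hist3h2a, Hist3h2ba and Hist3h2bb-ps. Hist3h2ba in A1G tumours was called with the replicate block (adjusted p = 0.0414) and by total fragments (0.0394). The gene-list counts and the counts without overlap were recomputed as alternatives added after seeing the data. Depth limits Hist1h1t and Hist1h2aa most, with 0 and 1 fragments in cerebellum.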
